A study of Mus musculus with 50 samples.

Results

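Transplanted mouse sarcomas that received 20 Gy and anti-PD-1 antibody together were compared with untreated transplants by bulk RNA sequencing, 3 days after treatment. The comparison used 8 of the 50 libraries of the series, chosen by their labels: 4 tumors treated with the combination and 4 that received 0 Gy and an isotype control antibody, which are called untreated here. Each tumor grew from 50000 cells injected into the gastrocnemius muscle of a syngeneic 129/SvJae mouse with an intact immune system. The cells came from a single line made from 1 untreated primary p53/MCA sarcoma. That primary tumor arose in a Trp53 fl/fl mouse in which an adenovirus expressing Cre deleted Trp53 at the injection site and the carcinogen 3-methylcholanthrene (MCA) was injected into the same muscle. All 8 tumors therefore carried the same Trp53 deletion and stood for 1 line, while the host mice were given no Cre virus. At about 150 mm3 the mice were given 200 ug of the anti-PD-1 antibody muDX400, or the isotype antibody, into the peritoneum, followed at once by 20 or 0 Gy to the hind limb. The other 8 transplants had radiation and isotype antibody (n = 4) or anti-PD-1 alone (n = 4), and 32 libraries came from primary tumors of the same model under the same 4 treatments.

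PD-1 is an inhibitory receptor of activated T cells, and its ligand PD-L1 can be induced by interferon. Radiation breaks DNA, which activates p53 where p53 is present. It also exposes nucleic acids to sensors that switch on type I interferon, and interferon in turn acts through a complex that holds STAT2 and IRF9 on a large set of antiviral genes. In a bulk tumor, RNA from tumor cells and from the host's infiltrating cells is read together. For any level that differed, more or fewer cells of a type and more or less RNA per cell cannot be told apart.

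The libraries were alike in depth, while the tumors differed in sex-linked RNA and in muscle RNA. Total counts ran from 36808039 to 44670951 in the 8 libraries, with means of 40059421 ± 2325464 (SD, n = 4) for the combination and 43075551 ± 2317194 (SD, n = 4) for the untreated tumors. All 8 held reads of Y-linked genes, while Xist, the RNA of the inactive X chromosome, was at 70.8, 600.1, 0.901 and 95.4 CPM (counts scaled to library size) in the combination tumors and at 0.406, 88.4, 0.135 and 0.314 CPM in the untreated tumors. Tumors that held Xist thus made up 3 of 4 in the combination arm and 1 of 4 in the untreated arm. Of 5 sex-linked genes, 2 were lower in every treated tumor (4.80% of all genes), and none was called by edgeR. Ddx3y was at 52.6 to 68.2 CPM untreated and at 11.1 to 51.8 CPM treated, and Kdm5d at 17.5 to 28.0 and 3.53 to 17.3 CPM. The Y-linked genes Eif2s3y and Uty overlapped between the arms. The mean of 14 skeletal muscle genes ranged from 2.44 to 10.0 log2 CPM in the untreated tumors and from 6.81 to 9.74 in the combination tumors, so the arms overlapped in muscle RNA. Trp53 itself was at 26.1, 29.1, 38.4 and 29.8 CPM in the untreated tumors and at 39.8, 45.02, 40.2 and 44.5 CPM with the combination (log2 fold change 0.46 ± 0.25 (SE), adjusted p = 0.357). Counts per gene do not resolve the deleted exons, so they do not check the deletion.

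The combination changed 852 of 19327 tested genes (4.41%), and nearly all of them rose. Higher expression was called for 798 genes (4.13% of those tested) and lower expression for 54 (0.279%), at an adjusted p under 0.05 by edgeR's quasi-likelihood test with Benjamini-Hochberg adjustment. The change was at least 2-fold for 615 of the 798 and for 25 of the 54. Of the genes that rose, 698 were protein coding, and of those that fell, 51. The median log2 fold change was -0.03 over all tested genes and 1.53 and -0.95 over the genes called higher and lower, and the plot of all genes shows how uneven the directions were. Without regard to the model, 1643 genes (8.50%) had all 4 combination tumors above all 4 untreated tumors, and 928 (4.80%) had all 4 below. The size of the gene list depended on single tumors. It held 332 higher and 11 lower genes without untreated tumor 1, 363 and 7 without untreated tumor 2, 256 and 14 without untreated tumor 4, 503 and 15 without combination tumor 2 and 531 and 9 without combination tumor 3. Without combination tumor 4 it held 757 and 82. With the presence of Xist in the fit as a further term, 731 genes were higher and 52 lower. Counts were simulated once for this comparison with the spread of the fit, and 200 genes with an average log2 CPM of at least 2 were changed. The test recovered 80% of those changed by log2 2 and 39% of those changed by log2 1. Genes of lower level were not changed, and shifts shared by many genes of a tumor were not simulated. The percentages therefore do not cover all tested genes.

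**Figure D1:**
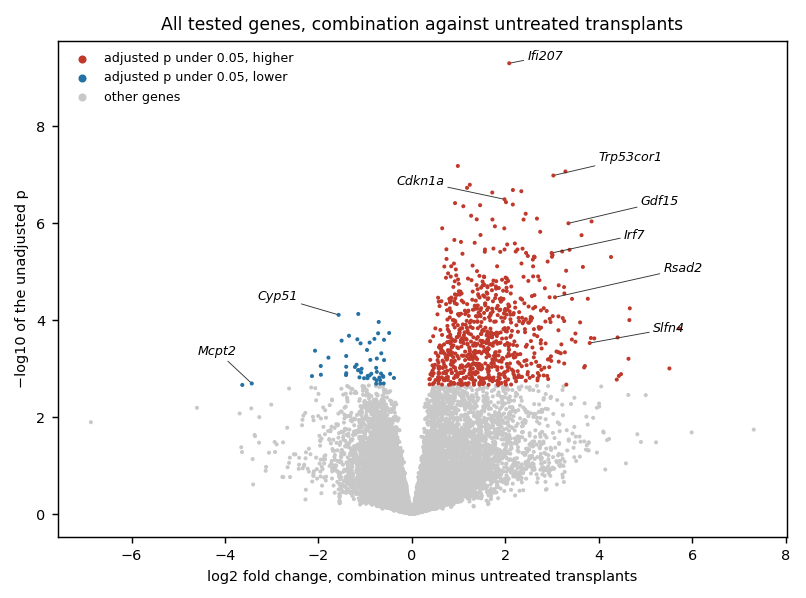
Every tested gene by log2 fold change, combination minus untreated transplants (horizontal axis), and -log10 of the unadjusted p (vertical axis), with the 798 genes called higher in red, the 54 called lower in blue and the others in grey. The called genes lie mostly to the right of 0, and Ifi207, at a log2 fold change of 2.08, is the highest point.

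The largest rises included interferon-induced genes and genes of myeloid cells. Among genes with an average log2 CPM of at least 2, Slfn4, a Schlafen family gene of myeloid cells, had the largest fold change. Its level was 20.9, 16.5, 14.5 and 24.9 CPM in the untreated tumors and 227, 217, 420 and 210.4 CPM with the combination (log2 3.81 ± 0.97, adjusted p = 0.0139). Ifit1bl1, a relative of the antiviral Ifit genes, was at 5.23 to 9.19 CPM untreated and at 54.4 to 135.7 CPM with the combination (log2 3.63 ± 0.66, adjusted p = 0.00118). Every treated tumor was above every untreated tumor for both genes. Fpr1, the formyl peptide receptor of phagocytes, was at 2.10, 2.31, 6.30 and 2.49 CPM untreated and at 35.1, 57.8, 27.1 and 17.2 CPM treated (log2 3.37 ± 0.63, adjusted p = 0.00167). Next in order came Gm6545 (log2 3.26), Ifi206 (3.14), the chemokine gene Cxcl11 (3.10), Rsad2 (3.06), Irf7 (2.99), Ifi214 (2.95), Phf11a (2.91), Ifit3 (2.89) and Sirpb1a (2.86), all with non-overlapping arms. These 12 genes thus hold antiviral effectors (Rsad2, Ifit1bl1, Ifit3), the interferon regulator Irf7, a T cell attractant (Cxcl11) and surface receptors of myeloid cells (Fpr1, Sirpb1a).

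The smallest p of all genes belonged to Ifi207, a member of the Ifi200 family of interferon-inducible nucleic acid binding proteins. It was at 15.5, 18.9, 33.3 and 17.8 CPM in the untreated tumors and at 76.2, 105.8, 78.3 and 102.04 CPM with the combination (log2 2.08 ± 0.26, adjusted p = 9.71e-06). Its lowest treated value was above its highest untreated value.

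All 26 genes of a list of type I interferon-stimulated genes rose, and for all 26 the treated and untreated tumors did not overlap. Of all genes, 4.13% rose and 8.50% had all treated tumors higher. The list was chosen with earlier results of these data known. Their log2 fold changes ran from 1.28 (Irf9) to 3.06 (Rsad2), with a median of 2.32 against -0.03 for all genes. The summed level of the list was 920 to 1944 CPM in the untreated tumors and 3946 to 9836 CPM in the treated tumors. Irf7, the transcription factor that amplifies interferon production, was at 106.2, 158, 216 and 108.7 CPM untreated and at 1668, 746, 1370 and 898 CPM with the combination (7.95-fold, log2 2.99 ± 0.57, adjusted p = 0.0017). Isg15, a ubiquitin-like modifier, was at 59.98, 69.6, 71.8 and 52.4 CPM untreated and at 832, 177, 500.2 and 231 CPM treated (6.86-fold, log2 2.78 ± 0.72, adjusted p = 0.0163). Rsad2, which encodes the antiviral enzyme viperin, was at 12.5, 13.5, 25.1 and 10.3 CPM untreated and at 229, 59.9, 109.3 and 115.2 CPM treated (log2 3.06 ± 0.66, adjusted p = 0.00478). In each of these 3 genes the second combination tumor was the lowest treated tumor, yet it was above every untreated one. Members of the complex that carries the interferon signal to DNA had smaller fold changes, with rises of 1.57 ± 0.35 for Stat2 and 1.28 ± 0.26 for Irf9 on the log2 scale (adjusted p = 0.00523 and 0.0034). Mx1, a GTPase that blocks viral replication, rose by 2.61 and Usp18, which removes Isg15 from proteins and dampens the receptor, by 2.58. The number of list members called fell to 12 without untreated tumor 4 and to 18 without untreated tumor 1, untreated tumor 2 or combination tumor 1.

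Many of the promoters of these genes carry the letters that interferon-activated factors are known to bind, the interferon-stimulated response element (ISRE). The search covered 250 bases before to 50 bases after the RefSeq start of each gene (GRCm38.p6) on both strands, for the letters GAAA, any pair of bases and GAAA again. A match was present in 3.99% of the promoters of all 27025 genes with a record and in 3.83% of the 13118 tested genes among them. It was present in 91 of 591 genes called higher (15.4%), in 2 of 38 called lower (5.26%) and in 11 of the 19 type I interferon-stimulated genes that had a record (57.9%). The interferon-gamma-activated sequence (GAS) TTCNNNGAA was found in 8.34% of tested genes, in 11.3% of genes called higher and in 15.8% of the type I list. Of the 1079 genes with an ISRE match, 2.13% had an overlapping GAS match. These are counts of letters and were not tested. The windows below are a choice among the interferon-induced genes with a match, and others with a match are not shown. Irf7 and Irf9 had a record but no match. Each is 30 bases long, in the direction of the gene, with the ISRE letters or their reverse complement in capitals, and was selected after the matches were known.
Isg15, chr4:156200871-156200900, minus strand: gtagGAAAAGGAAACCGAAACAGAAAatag
Ifit1, chr19:34640785-34640814, plus strand: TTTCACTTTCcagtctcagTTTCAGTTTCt
Ifit3, chr19:34583397-34583426, plus strand: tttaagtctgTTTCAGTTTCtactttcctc
Rsad2, chr12:26456553-26456582, minus strand: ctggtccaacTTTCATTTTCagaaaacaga
Oas1a, chr5:120907526-120907555, minus strand: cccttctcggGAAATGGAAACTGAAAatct
Stat2, chr10:128270266-128270295, plus strand: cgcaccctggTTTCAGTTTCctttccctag
Gbp5, chr3:142496759-142496788, plus strand: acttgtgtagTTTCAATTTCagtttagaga
Irgm1, chr11:48871428-48871457, minus strand: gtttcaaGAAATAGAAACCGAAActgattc
The Isg15 window, whose last base lies 53 bases before the start, holds 3 overlapping matches, and the Ifit1 window holds 2 separate ones.

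**Figure D2:**
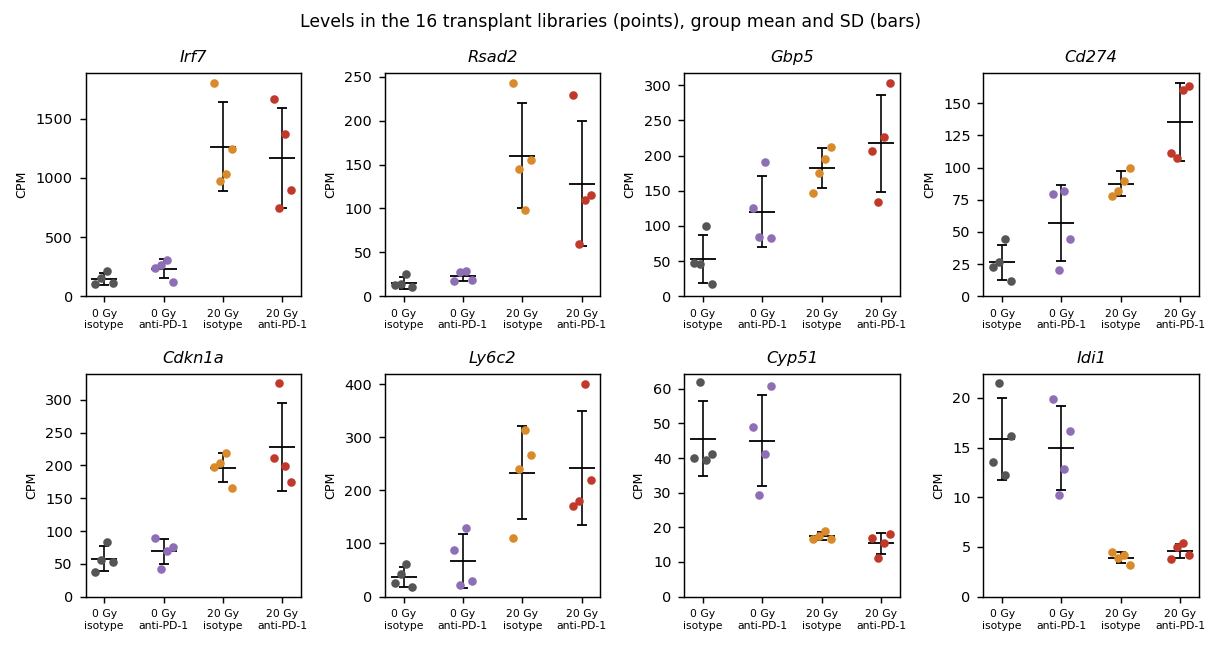
Levels of 8 genes (CPM, linear axes) in the 16 transplant tumors by treatment, with 1 point per tumor and bars for the mean and SD of each group of 4. For Irf7 the combination tumors sit between 746 and 1668 CPM, beside those with radiation alone, and the untreated tumors reach at most 216 CPM, while Cyp51 and Idi1 are lower in both irradiated groups.

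Interferon-gamma targets moved in the same direction with fewer calls. The interferon-gamma-inducible GTPases attack the vacuoles of intracellular pathogens, and with the regulator Irf1 they made a list of 16, of which 7 rose and none fell (median log2 fold change 1.79), while 10 had non-overlapping arms. Of all genes 4.13% rose and 8.50% had all treated tumors higher. Gbp5 was at 47.8, 46.4, 99.9 and 16.97 CPM in untreated tumors and at 207, 134.1, 226 and 303 CPM with the combination (log2 2.04 ± 0.52, adjusted p = 0.0139). Irgm1 was at 113.5, 106.5, 213 and 49.1 CPM untreated and at 503, 242, 486 and 580.2 CPM treated (log2 1.91 ± 0.44, adjusted p = 0.00705). The untreated tumors spread more for these genes than for the type I list, with tumor 3 highest and tumor 4 lowest. The calls depended on single tumors: none of the 16 was called without untreated tumor 4, 1 without untreated tumor 1 or 2, 3 without combination tumor 3 or 4, 4 without combination tumor 1 and 11 without untreated tumor 3, and DESeq2 called 14. The ISRE letters were in 9 of 11 promoters of the list (81.8%) and the GAS letters in 7 (63.6%).

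Some receptors that detect nucleic acids rose, while Ifnb1 and Ifng did not pass the test. Of 14 tested interferon and sensor genes, 5 rose, against 4.13% of all genes: the endosomal RNA and DNA receptors Tlr3 (log2 1.43), Tlr7 (1.80) and Tlr9 (2.02), the cytosolic DNA sensor Aim2 (1.59) and the RNA helicase Dhx58 (1.95). Of these, 2 or 3 were called without untreated tumor 1, 2 or 4. Tlr9 was at 16.7, 19.4, 53.04 and 12.7 CPM untreated and at 95.3, 83.2, 105.8 and 128.4 CPM treated (adjusted p = 0.0124). Ifnb1, the gene of interferon-beta, was at 0.143, 0.137, 0.113 and 0.112 CPM untreated and at 1.59, 0.290, 1.05 and 0.209 CPM with the combination (log2 2.60 ± 0.95, adjusted p = 0.116). Its arms did not overlap, but the difference missed the threshold. Ifng was at 1.17, 0.848, 2.09 and 0.269 CPM untreated and at 3.35, 2.10, 5.33 and 3.79 CPM treated (log2 1.73 ± 0.96, adjusted p = 0.37).

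In these tumors of a Trp53-deleted line 6 of 18 p53 targets rose (4.13% of all genes) and none fell, with a median log2 fold change of 0.82. Cdkn1a, the cell cycle inhibitor p21, was at 37.9, 56.1, 83.6 and 53.02 CPM untreated and at 212, 326, 199 and 176 CPM with the combination (3.95-fold, log2 1.98 ± 0.33, adjusted p = 0.000576). Gdf15, a secreted stress cytokine, was low, at 0.191, 0.252, 0.180 and 0.0897 CPM untreated and at 1.64, 2.71, 1.73 and 1.31 CPM treated (log2 3.35 ± 0.59, adjusted p = 0.000846). In both genes each treated tumor was above each untreated tumor by more than the spread of the untreated arm. Mdm2, which degrades p53, rose by 0.61 ± 0.16 on the log2 scale (adjusted p = 0.0163), from 50.9 to 66.01 CPM in the untreated arm to 72.5 to 104.6 CPM in the treated arm. The proapoptotic genes Bax and Bbc3 rose by 0.80 and 1.14 and the stress gene Sesn2 by 1.10. The noncoding RNA gene Trp53cor1, beside Cdkn1a on chromosome 17 and not on the list, was chosen after its values were seen. It was at 0.158 to 0.314 CPM untreated and at 1.15 to 2.90 CPM treated (log2 3.03 ± 0.48, adjusted p = 0.000501). Among the 18 targets, 3 were called without combination tumor 2 and 4 to 7 without another tumor.

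Sterol synthesis genes made up 10 of the 54 genes that fell. The cholesterol synthesis list, which holds the enzymes from acetyl-CoA to cholesterol and their regulators, had 10 of 22 members lower and none higher (background 0.279% lower), with a median log2 fold change of -0.86. All 22 had a negative sign, and 18 had every treated tumor below every untreated tumor (4.80% of all genes). The summed level was 750.1 to 1020 CPM untreated and 344 to 555 CPM treated. Cyp51, the lanosterol demethylase, was at 39.96, 61.9, 39.4 and 41.3 CPM untreated and at 16.9, 11.2, 15.4 and 18.04 CPM treated (log2 -1.57 ± 0.36, adjusted p = 0.00655). Idi1, of isoprenoid synthesis, was at 13.5, 21.5, 12.2 and 16.2 CPM untreated and at 3.77, 5.02, 5.38 and 4.20 CPM treated (log2 -1.79 ± 0.48, adjusted p = 0.0211). For both enzymes the highest treated value was well under the lowest untreated one.

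A regulator of the pathway fell as well. Srebf2, the transcription factor of sterol genes, was at 149.95, 172, 162 and 128.7 CPM untreated and at 76.8, 56.8, 71.1 and 113.2 CPM treated (log2 -0.95 ± 0.28, adjusted p = 0.0371). Hmgcs1, Sqle and Lss fell by 0.87, 1.41 and 1.09 on the log2 scale. The list's calls rested on single tumors: 1 member was called without untreated tumor 2, 2 without combination tumor 1, 3 without untreated tumor 1 or 4 or combination tumor 2 or 3, and 8 without another tumor. With only the 16 transplants in the fit 16 were called.

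Other genes among the 12 largest falls were of mixed function. Mcpt2, a mast cell protease, was at 13.9, 22.4, 11.9 and 12.1 CPM untreated and at 0.650, 1.01, 1.68 and 2.24 CPM with the combination (10.8-fold lower, log2 -3.43 ± 1.04, adjusted p = 0.0475). Its call was lost when any single tumor of the 2 arms was left out (adjusted p up to 0.157 by edgeR). Scd2, a fatty acid desaturase, was at 256 to 470 CPM untreated and at 87.7 to 213 CPM treated (log2 -1.41, adjusted p = 0.0201). Pdgfc, a growth factor of mesenchymal cells, was at 110.4 to 224 CPM untreated and at 41.6 to 82.4 CPM treated (log2 -1.35, adjusted p = 0.0115). Amph, Mum1l1, Pcyt1b, Gulp1 and the cytosolic thiolase gene Acat2 fell by 2.14, 1.41, 1.41, 1.22 and 1.18 on the log2 scale, with no overlap between the arms.

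Every member of both proliferation lists had a negative sign, but none passed by edgeR. The 17 G2/M genes had a median log2 fold change of -0.79, and 9 had non-overlapping arms, against 4.80% of all genes. By edgeR 13 of the 17 had an unadjusted p under 0.05, DESeq2 called 2 lower and limma voom 1, and with only the 16 transplants in the fit 8 were called. Their summed level was 1277 to 1608 CPM untreated and 442 to 1183 CPM treated. Ccnb1, the cyclin of mitotic entry, was at 83.9, 101.8, 73.4 and 82.1 CPM untreated and at 60.5, 27.5, 49.5 and 63.3 CPM treated (log2 -0.77, adjusted p = 0.316), and Ccnb2 came nearest to the threshold (adjusted p = 0.0555), at 52.4 to 74.2 CPM untreated and 18.1 to 36.6 CPM treated. The 13 S phase genes had a median of -0.32 and the 17 double-strand break repair genes one of -0.39, with no call in either list by edgeR, DESeq2 or limma voom (0 and 2 genes at an unadjusted p under 0.05 by edgeR). Without combination tumor 1, 1 repair gene was called lower.

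RNA of the PD-L1 gene rose, whereas the T cell genes did not pass by edgeR. Of 13 checkpoint receptors and ligands, 2 rose, against 4.13% of all genes, and 5 had an unadjusted p under 0.05 by edgeR. Cd274, which encodes PD-L1, was at 22.9, 26.5, 44.6 and 11.7 CPM untreated and at 111.4, 107.6, 160.04 and 163 CPM with the combination (5.13-fold, log2 2.36 ± 0.55, adjusted p = 0.00706). The other was Cd38, an ectoenzyme of activated leukocytes (log2 1.57, adjusted p = 0.0257). Neither was called without untreated tumor 4, and 1 of them without untreated tumor 1 or 2 or combination tumor 2 or 3. Pdcd1, which encodes PD-1 itself, was at 9.02, 20.4, 14.2 and 5.58 CPM untreated and at 9.49, 17.1, 18.2 and 8.80 CPM treated (log2 0.12 ± 0.78, adjusted p = 0.968), so the arms overlapped throughout. These are RNA levels of whole tumors. By mass cytometry of separate transplants the paper found that macrophages with PD-L1 protein became less frequent after radiation. That protein measure in macrophages is not the same quantity as Cd274 RNA of the whole tumor.

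Of 14 T cell genes, 14 NK and cytotoxic genes and 6 regulatory T cell genes, none was called by edgeR, though all had positive signs. At an unadjusted p under 0.05 by edgeR there were 1, 8 and 2 genes. DESeq2 called 3 of the NK and cytotoxic genes and limma voom 2, neither called a gene of the other two lists, and with only the 16 transplants in the fit 1, 8 and 2 were called. The summed level of the T cell list was 80.3 to 165 CPM untreated and 131.4 to 336 CPM treated, with overlap. That of the NK and cytotoxic list was 55.0 to 203 CPM untreated and 420.2 to 818 CPM treated, with none, and 8 of its 14 members had non-overlapping arms (8.50% of all genes had all treated tumors higher). Gzmb, the cytotoxic protease granzyme B, was at 31.1, 50.8, 78.8 and 15.2 CPM untreated and at 246, 146, 393 and 224 CPM treated (log2 2.52 ± 0.79, adjusted p = 0.0575). Gzma was at 8.16, 32.9, 7.61 and 3.56 CPM untreated and at 74.4, 52.9, 119.7 and 56.4 CPM treated (log2 2.54, adjusted p = 0.114). Cd3e, a chain of the T cell receptor complex, was at 10.6, 16.7, 18.7 and 5.90 CPM untreated and at 9.88, 23.5, 23.8 and 17.7 CPM treated (log2 0.53, adjusted p = 0.818). The 2 granzyme genes were thus separated between arms where Cd3e was not, and the difference between them was not tested. Other T cell genes were separated: 3 of the 14 T cell genes and 3 of the 6 regulatory T cell genes had all treated tumors higher.

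Antigen presentation genes were higher in sign in all 22 members of 2 lists, with 1 call (4.13% of all genes rose). That single call is a share near the background. At a looser threshold the counts in the 2 lists were unequal, but their median changes were close and no test compared the lists. At an unadjusted p under 0.05 by edgeR there were 12 of the 14 class I genes and 0 of the 8 class II genes. The share over all genes was 16.8% in either direction. All treated tumors were above all untreated tumors for 5 class I and 4 class II genes (8.50% of all genes). In the class I list of 14, 4 genes were called without untreated tumor 3, none without untreated tumor 1 or 4, and 10 with only the 16 transplants in the fit, where 2 of 8 class II genes were called. H2-T23, a nonclassical class I gene that engages NK receptors, was at 130.01, 181, 229 and 84.3 CPM untreated and at 600.4, 425, 617 and 474 CPM treated (log2 1.76 ± 0.43, adjusted p = 0.011). H2-K1, a classical class I gene, was at 1409, 1692, 2386 and 741 CPM untreated and at 3983, 2363, 3048 and 3570 CPM treated (log2 1.06, adjusted p = 0.218). The median log2 fold change was 1.05 over 14 class I genes and 1.005 over 8 class II genes, where H2-Aa and H2-Ab1 had values of 1.11 and 1.01 (adjusted p = 0.495 and 0.539). Class I genes of one family resemble each other, so reads could have been divided between them.

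Some monocyte and macrophage genes rose. Of 6 monocyte genes, 4 were called higher (4.13% of all genes) and all 6 had non-overlapping arms (8.50% of all genes), with a median log2 fold change of 2.59 and summed levels of 502 to 747 CPM untreated and 1684 to 4421 CPM treated. Ly6c2, the marker of inflammatory monocytes, was at 25.2, 41.7, 60.4 and 18.9 CPM untreated and at 171, 180.05, 401 and 219.9 CPM with the combination (6.64-fold, log2 2.73 ± 0.76, adjusted p = 0.0276). Ms4a4c was at 64.7, 93.7, 114.2 and 69.5 CPM untreated and at 413, 512, 835 and 271 CPM treated (log2 2.57 ± 0.55, adjusted p = 0.00469). Ms4a6c rose by 1.78, while Ccr2, the receptor that brings monocytes out of the marrow, did not pass (1.33, adjusted p = 0.148).

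Of 12 macrophage genes, 4 rose (4.13% of all genes did), namely the high-affinity Fc receptor Fcgr1, Adgre1 (F4/80), the lysosomal Cd68 and the integrin Itgam. Fcgr1 was at 76.97, 87.2, 117.1 and 68.6 CPM untreated and at 331, 339, 404 and 258 CPM treated (log2 1.93 ± 0.40, adjusted p = 0.0034). Adgre1 was at 78.4, 95.3, 163 and 76.6 CPM untreated and at 238, 583, 244 and 243 CPM treated (log2 1.66, adjusted p = 0.0201), with combination tumor 2 far above the other 3. Csf1r, the macrophage growth factor receptor, overlapped between the arms (log2 0.63, adjusted p = 0.392). Of the 12 macrophage genes 1 was called without untreated tumor 1 or 4 and 2 without untreated tumor 2 or combination tumor 2, and of the 6 monocyte genes 2 without untreated tumor 1, 2 or 4 or combination tumor 3. Among 8 genes of anti-inflammatory macrophages only Il10 was called (log2 2.06 ± 0.61, adjusted p = 0.0411), at under 1 CPM in every untreated tumor, and it was not called when any of the 8 tumors other than combination tumor 1 was left out. Arg1, of the same list, was at 53.3, 123.2, 8.35 and 81.03 CPM untreated and at 41.1, 18.5, 40.6 and 7.13 CPM treated (log2 -1.31 ± 0.93, adjusted p = 0.513).

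Neutrophil genes held 1 call of 9, Fpr1, where 4.13% of all genes rose. B cell and dendritic cell genes held none of 6 and 9 by edgeR (1 and 2 at an unadjusted p under 0.05). DESeq2 and limma voom each called 1 dendritic cell gene and no B cell gene. The neutrophil granule gene Ngp was at 62.5 CPM in untreated tumor 3 and between 1.46 and 5.38 CPM in the other 3 untreated tumors, against 0.418 to 0.998 CPM with the combination (log2 -4.60, adjusted p = 0.0975).

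Chemokines and cytokines of monocyte and T cell traffic rose in part. Of 16 chemokines, 6 were called higher, against 4.13% of all genes: Cxcl10 and Cxcl11, which draw cells that carry CXCR3, and Ccl4, Ccl5, Ccl7 and Ccl12, which draw monocytes and T cells. Ccl5 was at 24.6, 45.9, 34.9 and 19.9 CPM untreated and at 301, 79.9, 217 and 92.1 CPM treated (log2 2.46 ± 0.63, adjusted p = 0.0145). Cxcl10 was at 167, 131.98, 262 and 68.2 CPM untreated and at 1266, 170.1, 699 and 814 CPM treated (log2 2.23, adjusted p = 0.0438), so combination tumor 2 fell inside the untreated range. None of the 16 was called without untreated tumor 1, untreated tumor 4 or combination tumor 1, 1 without untreated tumor 2 and 2 without combination tumor 3. Of 13 inflammatory mediators, 3 rose: the interleukin-1 receptor antagonist Il1rn (log2 1.95 ± 0.46, adjusted p = 0.00768), Tnf (2.07, adjusted p = 0.0169) and Acod1, the enzyme that makes itaconate in macrophages (2.69, adjusted p = 0.0396). None of the 13 was called without untreated tumor 4 and 1 without untreated tumor 1 or 2 or combination tumor 3. Il1b was higher in every treated tumor but did not pass (1.60, adjusted p = 0.338).

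Of 11 genes of inflammatory and extrinsic cell death, 7 rose, against 4.13% of all genes. Casp1, the inflammasome protease, was at 13.003, 11.98, 19.5 and 9.87 CPM untreated and at 42.6, 67.97, 69.2 and 42.1 CPM treated (log2 2.03 ± 0.43, adjusted p = 0.00423). Casp4, the receptor of cytosolic lipopolysaccharide, rose by 1.99, the inflammasome sensor Nlrp3 by 1.47 and the pore-forming Gsdmd by 0.85. Of the extrinsic pathway, Tnfsf10 (TRAIL) rose by 1.72, Casp8 by 0.57 ± 0.13 (adjusted p = 0.00501) and Ripk1 by 0.44. Of the 11, 2 were called without untreated tumor 4, 3 without untreated tumor 2 and 4 without untreated tumor 1 or combination tumor 3.

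Stroma and tissue lists showed few calls, where 4.13% of all genes rose and 0.279% fell. Of 15 matrix genes and 8 mesenchymal sarcoma markers none was called by edgeR, DESeq2 or limma voom (medians -0.46 and -0.38), with 3 and 0 at an unadjusted p under 0.05 by edgeR. Without combination tumor 4, 1 matrix gene was called lower. Among the metalloproteinases the collagenase Mmp13 rose (log2 2.62, adjusted p = 0.0188), from 16.9 to 44.6 CPM to 40.2 to 508 CPM, with overlap. Its call was lost without untreated tumor 1, 2 or 4 or combination tumor 1, and leaving out a tumor gave log2 fold changes from 1.52 to 2.96. Tgfb1 rose by 0.58 (adjusted p = 0.0297), the only one of 12 TGF-beta ligands and response genes, and was not called without untreated tumor 1, 2 or 4 or combination tumor 1 or 4. No gene was called by edgeR, DESeq2 or limma voom among 14 skeletal muscle, 7 myogenic, 8 endothelial, 6 adipose, 5 red blood cell and 5 nerve glia genes. By edgeR 1 endothelial gene had an unadjusted p under 0.05 and none of the others did, and 1 endothelial gene was called with only the 16 transplants in the fit.

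**Figure D3:**
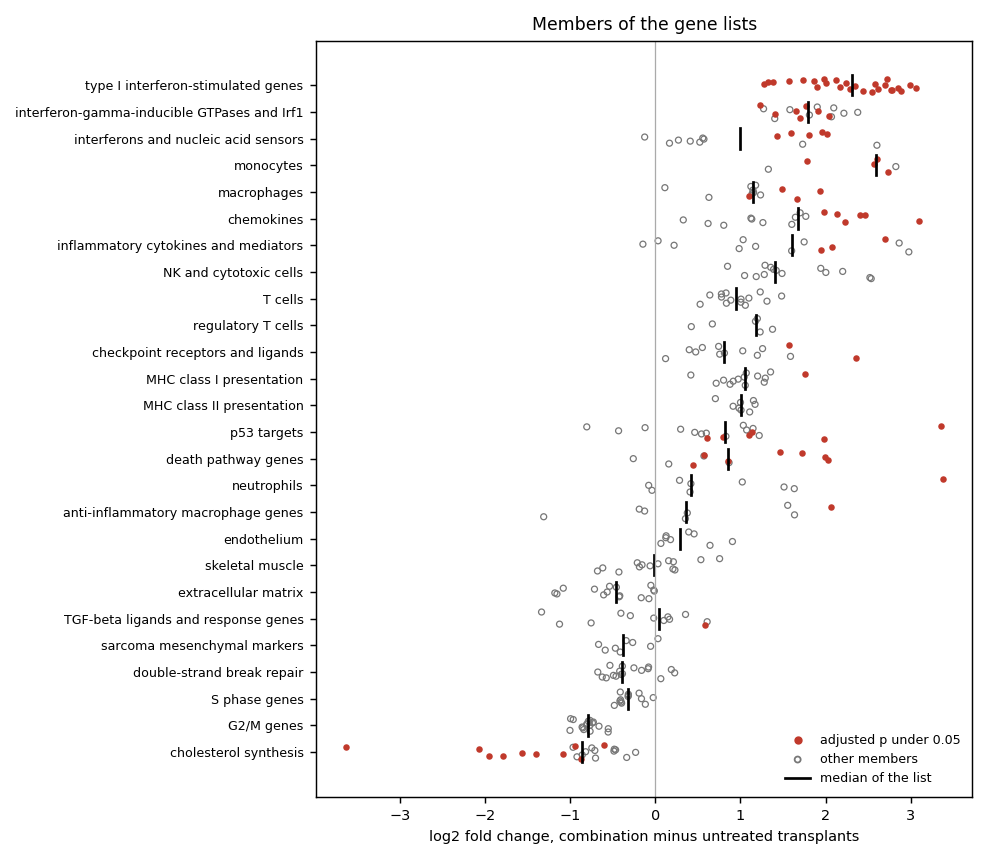
Change of every member of the main gene lists, with log2 fold change (combination minus untreated, transplants) on the horizontal axis, 1 row per list, filled points for genes with an adjusted p under 0.05, open points for the others and a bar at the list's median. All 26 type I interferon-stimulated genes lie right of 0 and are called, and all 22 cholesterol synthesis genes lie left of it, 10 of them called.

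Genes that rose stood together in several gene clusters. Windows of 1 Mb with at least 6 called genes, chosen after the values were known, numbered 10 and held 88 of the 798 genes. Of all genes 4.13% rose, but this rule picks windows by their calls and so favours high shares. Whether called genes clustered more than by chance was not tested. The window of chromosome 1 from 173 to 174 Mb, which holds the Ifi200 family, had 15 of 18 tested genes called (83.3%), with log2 fold changes from 1.30 to 4.26. The Sp100, Sp110 and Sp140 window on chromosome 1 (85 to 86 Mb) had 11 of 22. The Schlafen and Ccl window on chromosome 11 (83 to 84 Mb) had 10 of 27, the Oas window on chromosome 5 had 8 of 23, the Trim12, Trim30 and Trim34 window on chromosome 7 had 7 of 13 and the Ifit window on chromosome 19 (34 to 35 Mb) 6 of 16. A further window on chromosome 1 (171 to 172 Mb) had 11 of 40, among them the Fc receptor genes Fcgr4 and Fcer1g and the SLAM receptors Cd48, Cd84 and Slamf7. Many of these are close copies of each other, and how reads shared between copies were counted could divide or move their counts.

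Each single treatment was set against the same 4 untreated tumors, so the comparisons are not independent. Radiation alone gave 352 higher genes (1.82%) and 20 lower genes (0.103%), 1.92% in all. That share was 0.367% to 0.585% without untreated tumor 1, 2 or 4, 3.21% without untreated tumor 3 and about 1.0% without irradiated tumor 1 or 4. Anti-PD-1 alone gave 0 by edgeR, with 0.678% of genes at an unadjusted p under 0.05, and 1 by DESeq2 and 0 by limma voom. Across the 798 genes that rose with the combination, the median log2 fold change was 1.53 with the combination, 1.20 with radiation alone and 0.35 with anti-PD-1 alone, and across the 54 that fell it was -0.95, -0.70 and -0.05. These genes were chosen by the combination contrast, which favours its own values.

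By gene group the order was not the same. Type I interferon-stimulated genes had a median of 2.43 with radiation alone, where 25 of 26 were called, and 0.58 with anti-PD-1 alone. Irf7 was at 1264 ± 376 CPM (SD, n = 4) with radiation, 1171 ± 425 with the combination and 147 ± 51.6 untreated. Sterol genes had medians of -0.77 with radiation and 0.04 with anti-PD-1, and p53 targets had medians of 0.41 and 0.08. T cell genes had a median of 0.07 with radiation, 0.91 with anti-PD-1 and 0.95 with the combination, with no call in any of the 3. Cd274 had log2 fold changes of 1.72 with radiation (adjusted p = 0.0839), 1.10 with anti-PD-1 and 2.36 with the combination.

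**Figure D4:**
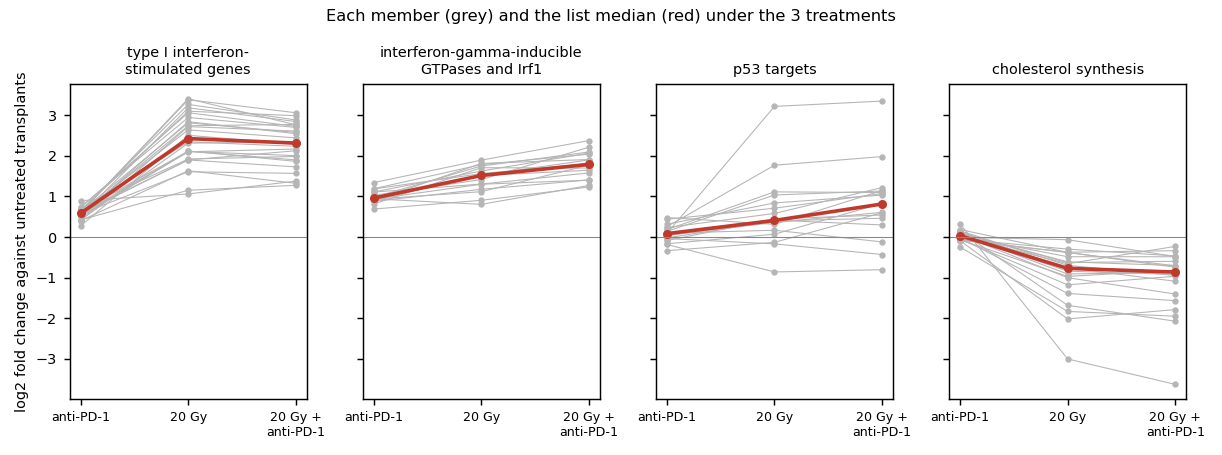
Log2 fold change against the same 4 untreated transplants (vertical axis) under anti-PD-1, 20 Gy and both (horizontal axis) in 4 gene lists, with a grey line per gene and a red line for the list's median. The median of the type I interferon-stimulated genes stands at 0.58, 2.43 and 2.32, and that of the cholesterol synthesis genes at 0.04, -0.77 and -0.86.

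Direct tests between the treated arms found differences against anti-PD-1 alone and not against radiation alone. The combination differed from anti-PD-1 alone in 0.595% of the 19327 genes, with 0.538% higher and 0.0569% lower. That share was 0.0153% to 0.224% without anti-PD-1 tumor 1, 2 or 4 or combination tumor 1, 2 or 3, and 0.915% without combination tumor 4. Cdkn1a was 1.73 ± 0.33 higher on the log2 scale (adjusted p = 0.00711), Irf7 2.33 ± 0.55 higher (adjusted p = 0.0405), Slfn4 3.89 higher (adjusted p = 0.0482) and Cyp51 1.55 lower (log2 -1.55 ± 0.36, adjusted p = 0.036). Against radiation alone no gene passed by edgeR (513 at an unadjusted p under 0.05) or limma voom, and 1 passed by DESeq2 (Skint3). The test of whether the combination departed from the sum of the single treatments gave 0 genes by edgeR, DESeq2 and limma voom (251 at an unadjusted p under 0.05 by edgeR). A p that misses the threshold does not show that the arms were alike: for Cdkn1a the difference between combination and radiation was 0.21 ± 0.32, for Irf7 -0.11 ± 0.53 and for Cd274 0.63 ± 0.52.

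The primary tumors offered a comparison with no shared library. There the same combination (n = 8) against its own untreated tumors (n = 8) changed 3635 genes (18.8%), 2197 higher and 1438 lower. The transplant arms had n = 4 each, so the counts of called genes in the 2 models cannot be compared as sizes of response. Of the 798 genes that rose in transplants, 613 (76.8%) also rose in primary tumors, where 11.4% of all tested genes did, and they made up 27.9% of the primary tumors' higher genes. Of the 54 that fell, 41 (75.9%) also fell there, where 7.44% of all genes did, and they made up 2.85% of the lower genes. The sign was the same for 831 of the 852 genes.

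The median over the 798 genes was 1.53 in transplants and 1.05 in primary tumors, and that over the 54 was -0.95 and -0.55, with the choice made on the transplant values. Type I interferon-stimulated genes had medians of 2.32 in transplants and 1.58 in primary tumors, interferon-gamma-inducible GTPases 1.79 and 2.22, chemokines 1.67 and 2.32, neutrophil genes 0.42 and 3.06, G2/M genes -0.79 and -0.94 and cholesterol synthesis genes -0.86 and -1.10. In primary tumors, with 8 tumors an arm, all 16 GTPase-list genes, 14 of 16 chemokines, 6 of 9 neutrophil genes, 16 of 17 G2/M genes and all 22 sterol genes were called.

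The difference between the models was tested in the same fit and gave no call. No gene passed by edgeR (1237 at an unadjusted p under 0.05, smallest adjusted p = 0.251) or limma voom, and 4 passed by DESeq2: Abi1, Skint3, Arg1 and Nr4a1. Abi1, a regulator of actin assembly, was at 96.96, 112.3, 109.1 and 88.3 CPM in untreated transplants and at 143.8, 202.8, 150.2 and 140.8 CPM with the combination, a log2 change of 0.65 ± 0.12 against -0.04 in primary tumors (edgeR difference 0.69, adjusted p = 0.251). Arg1 had a log2 change of -1.31 in transplants and 3.52 in primary tumors (difference -4.83 ± 1.21, adjusted p = 0.385). Nr4a1, an immediate early gene of activated cells, had changes of -1.59 and 1.81 (difference -3.40, adjusted p = 0.385). The collagenase gene Mmp8, of the neutrophil list, had changes of 1.02 and 5.63 (difference -4.60, adjusted p = 0.570). These opposite or unequal values therefore did not pass the test of the difference in the edgeR fit.

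**Figure D5:**
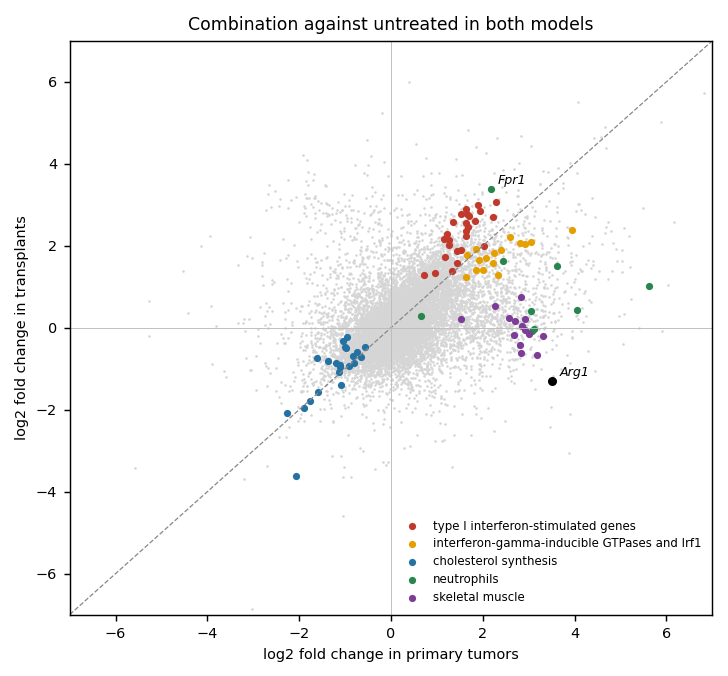
Log2 fold change of the combination in primary tumors (horizontal axis) and in transplants (vertical axis) for all tested genes in grey, with 5 gene lists coloured, a dashed line of equal change and 1 gene outside the axes. Most type I interferon-stimulated genes lie above the line, the neutrophil genes other than Fpr1 below it, and the skeletal muscle genes near 0 in transplants and right of 0 in primary tumors.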

How the data were processed

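RNA of whole tumors was measured by RNA-seq from polyA-captured, stranded libraries. The authors trimmed reads with Trimmomatic, mapped them to mm10 with STAR and GENCODE M17, and deposited raw counts per gene made in STAR by the HTSeq method; the strand setting was not given in the sources used here. Normalization by the authors was not used. Symbols came from GENCODE M21 (37408 of 37469 identifiers) and promoter sequences from RefSeq.

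Counts were fitted in edgeR 4.0.16 (R 4.3.3) with TMM scaling and the robust quasi-likelihood test over 48 tumor libraries in 8 groups (total counts 31810461 to 54008259), which share 1 estimate of spread. The default filter on low counts left 19327 genes. Adjusted p-values (Benjamini-Hochberg) are two-sided, with a threshold of 0.05, and CPM values are scaled by TMM. The SE of a log2 fold change was derived from the test, as its absolute value over the square root of the F statistic. The self-test made 122 calls on simulated counts, 3 of them false. DESeq2 1.42.0, limma 3.58.1 voom, DESeq2 size factors, other filters, other sets of libraries, a muscle covariate and leaving out each library were alternatives. An Xist covariate was added after seeing the data.

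The comparison, its gene lists and the rule for named genes were chosen with earlier results of these data known. Named genes were up to 12 of the largest called changes in each direction whose mean log2 CPM was 2 or more and whose arms did not overlap, up to 3 in each direction for the other comparisons, Trp53, and in each list the strongest called members and its first 2 symbols. Further called members and genes of the tests between models were named after their values were seen. Replicates were numbered in accession order. The 24 pairs within the groups differed beyond sampling noise (lowest chi-square per degree of freedom 94.6, Spearman's rho 0.937 to 0.986), so none was counted as one library. Libraries are labelled as separate samples, and p-values measure the spread between these samples. Some genes are not reported here.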

Additional observations from a re-analysis of the deposited data

Results flagged for a closer look

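A value was picked out where the highest or lowest of 4 tumors lay far from the other 3 (the gap to the nearest, over the whole range, above Dixon's 95% critical value). This held for 17 of the 228 groups of 4 tried, where chance gives about 1 in 20, and no explanation was tested.

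In the combination arm, tumor 2 was highest for Adgre1 (583 CPM) and Abi1 (203 CPM). Tumor 3 was highest for Slfn4 (420 CPM) and Il1b (264 CPM). Tumor 4 was highest for the regulatory T cell genes Foxp3 (6.32 CPM) and Il2ra (20.0 CPM) and for Nr4a1 (149.6 CPM).

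In the untreated arm, tumor 3 was highest for Fpr1 (6.30 CPM), Gm6545 (3.47 CPM), Sirpb1a (31.1 CPM), Tlr9 (53.04 CPM), Il10 (0.765 CPM) and Ngp (62.5 CPM), which are genes of myeloid cells or sensors, and lowest for Gulp1 (20.5 CPM). Tumor 2 was highest for the sterol gene Cyp51 (61.9 CPM) and for Gzma (32.9 CPM). Tumor 1 had the lowest total count of its arm, 39637928.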

How the results depend on the processing

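Of 87 named genes past the threshold, 27 stayed past it in all 17 alternatives, among them Irf7, Ifit1bl1, Ifit3, Rsad2, Irf9, Cdkn1a, Gdf15, Bbc3, Cyp51, Fcgr1, Ms4a4c, Casp1 and Ifi207, and none of the 87 changed sign. Most calls were lost without untreated tumor 4 (54), 2 (49) or 1 (47), and 11 with Xist presence as a covariate. With 4 tumors an arm, single tumors decide much of the count.

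As shares of the genes tested, the combination raised 4.13% (7.45% with only the 16 transplants fitted, 1.30% to 4.29% leaving out a tumor). It lowered 0.279% (0.678% by DESeq2, 0.523% by voom, 0.0705% of the larger table with no filter, 2.24% with only the transplants, 0.712% with only the groups compared, 0.0356% to 0.417% leaving out a tumor). For radiation alone, 1.92% became 3.10% by DESeq2, 0.619% with no filter, 5.12% with only the transplants, 6.22% with only the groups compared and 0.367% to 3.21% leaving out a tumor. For combination against anti-PD-1, 0.595% became 2.49% by DESeq2, 1.69% by voom, 0.0814% with no filter, 1.34% at 1 CPM or more, 3.88% with only the transplants, 0.0059% with only the groups compared, 1.15% with the muscle covariate, 0.269% with Xist and 0.0153% to 0.915% leaving out a tumor. Shares of 0 became 0.00517% (1 gene) by DESeq2 for anti-PD-1 alone and for combination against radiation. For the difference between models 0 became 0.0207% (4 genes) by DESeq2, and without combination tumor 4 it was 0.00508% (Nr4a1). The cause was not tested.

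Pdcd1 (log2 0.12, not called) turned to -0.10 with the muscle covariate, and leaving out a tumor gave -0.13 to 0.46, with -0.002 without untreated tumor 1, -0.01 without combination tumor 2 and -0.07 without combination tumor 3. No paired analysis was possible because replicate numbers were given in accession order and pair no tumors.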
